A study of Homo sapiens with 6 samples.

Results

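Iron-sulfur cluster assembly was followed through 8 human genes, ISCU, NFS1, LYRM4, HSCB, GLRX5, ISCA1, ISCA2 and FDX2, out of 46427 genes listed in each library. They were chosen by gene symbol for their place in the mitochondrial assembly pathway, and each symbol matched 1 row in every library. The study measured RNA in 6 libraries of K562, a human leukemia cell line labelled wild type that carries the BCR-ABL1 fusion and makes fetal and embryonic globins. Of these, 3 libraries came from cells given 10 µM HR-19011, a small molecule with a code name only, for 24 h. The series title places its action in the integrated stress response, through the kinase HRI and the factor ATF4. The other 3 came from cells given 0.1% DMSO as vehicle for the same time. How much DMSO the HR-19011 cells received is not in the labels. Nor do the labels tell whether libraries of 1 group are separate cultures of this 1 cell line, and every p-value here therefore rests on a spread between libraries that may be technical.

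Iron-sulfur clusters are small groups of iron and sulfide held by cysteines in proteins that carry electrons, bind substrates or keep DNA enzymes in shape. In mitochondria, the cysteine desulfurase NFS1, held stable by LYRM4, takes sulfur from cysteine, and the ferredoxin FDX2 supplies electrons while a cluster is built on the scaffold ISCU. The co-chaperone HSCB and the chaperone HSPA9 then move the cluster to the glutaredoxin GLRX5, from which the ISCA1 and ISCA2 proteins make the larger clusters of aconitase, lipoate synthase and the respiratory chain. Red cell precursors depend on this pathway because the last enzyme of heme synthesis carries a cluster and because the iron sensor IRP1, encoded by ACO1, changes function with its cluster. In people, inherited defects of GLRX5 or HSCB cause sideroblastic anemia.

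The starts of the member genes show how these transcripts are laid out in the genome. The 250 bases before the RefSeq start are printed 5′ to 3′ on the gene's own strand (build GRCh38.p14) for ISCU, the member whose rise held under every scaling tried, for GLRX5, the member with the largest fall, and for HSCB and LYRM4, which like GLRX5 start close to a gene on the other strand. NFS1 and ISCA2 also start close to a gene on the other strand, and their windows are not printed. The ISCU window lies inside the annotated span of ISCU, which begins before it. The LYRM4 window lies inside the annotated span of FARS2, a gene on the other strand. The first bases of the GLRX5 window lie in SNHG10 and those of the HSCB window in CHEK2, both on the other strand. The last bases of the HSCB window lie in HSCB itself. Capitals mark the letters of motifs that were searched, on either strand, namely the antioxidant response element core in ISCU, CCAAT boxes in GLRX5 and HSCB, and the core of the C/EBP-ATF response element in LYRM4. The regions are chr12:108562346-108562595 (plus strand) for ISCU, chr14:95534800-95535049 (plus strand) for GLRX5, chr22:28741789-28742038 (plus strand) for HSCB and chr6:5260951-5261200 (minus strand) for LYRM4.
ISCU: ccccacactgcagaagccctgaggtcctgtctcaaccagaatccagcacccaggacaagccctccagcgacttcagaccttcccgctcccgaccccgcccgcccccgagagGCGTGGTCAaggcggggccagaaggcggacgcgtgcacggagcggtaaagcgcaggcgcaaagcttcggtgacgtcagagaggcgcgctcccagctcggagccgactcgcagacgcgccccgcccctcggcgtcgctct
GLRX5: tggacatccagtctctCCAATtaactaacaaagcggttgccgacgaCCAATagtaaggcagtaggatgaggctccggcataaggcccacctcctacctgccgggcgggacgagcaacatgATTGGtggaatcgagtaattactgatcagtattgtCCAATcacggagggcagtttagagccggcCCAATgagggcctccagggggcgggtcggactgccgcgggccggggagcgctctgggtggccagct
HSCB: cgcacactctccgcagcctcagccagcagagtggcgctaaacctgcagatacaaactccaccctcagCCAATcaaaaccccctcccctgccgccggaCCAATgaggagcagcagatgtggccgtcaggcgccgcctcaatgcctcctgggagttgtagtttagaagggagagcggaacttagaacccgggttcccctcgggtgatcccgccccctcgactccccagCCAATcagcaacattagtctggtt
LYRM4: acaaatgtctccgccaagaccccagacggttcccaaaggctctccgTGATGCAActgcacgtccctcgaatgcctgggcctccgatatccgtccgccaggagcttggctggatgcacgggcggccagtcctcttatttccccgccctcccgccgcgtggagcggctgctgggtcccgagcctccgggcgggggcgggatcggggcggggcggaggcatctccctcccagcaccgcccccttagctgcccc

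Motifs were searched on both strands in RefSeq windows of 300 bases, from 250 before to 50 after the start, and compared with 27305 such windows, 1 per gene. The CCAAT box (CCAAT), bound by the factor NF-Y, was found in the windows of 4 of 8 members, HSCB, GLRX5, ISCA1 and ISCA2, and in 35.7% of all windows. GLRX5 held 5 CCAAT matches, a number that 0.403% of all windows reached, and HSCB held 3, which 3.42% reached. The antioxidant response element core (TGACNNNGC), used by NRF2, was found in ISCU alone among the members and in 13.6% of all windows. The core of the C/EBP-ATF response element (TGATGNAA), used by ATF4, was found in LYRM4 alone among the members and in 3.67% of all windows. The NRF1 core (GCATGCG) was found in FDX2 alone among the members and in 4.13% of all windows. None of these motifs was found in the window of NFS1. No motif match overlapped another in the windows of the members, and a match describes letters, not a bound site. The GC content of the 8 windows ranged from 56.0% in FDX2 to 72.0% in LYRM4, against a median of 58.3% over all windows.

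The values are FPKM, fragments scaled to transcript length and to the fragments of the library, as the authors deposited them, and the depth behind them is unknown. A gene was called when its Benjamini-Hochberg adjusted p was under 0.05 in limma on log2(FPKM + 1), fitted over 11856 genes whose mean across the 6 libraries reached 1 FPKM. Of all tested genes, 84.4% were called, 46.4% higher and 38.0% lower in HR-19011, so a call by itself sets no gene apart here. Summed FPKM ranged from 420661 to 427819 in HR-19011 libraries and from 456639 to 467595 in vehicle libraries. The 10 erythroid markers chosen for K562 cells summed to between 4737 and 5035 FPKM in HR-19011 libraries and between 12176 and 12341 FPKM in vehicle libraries, and all 10 were called lower. The 6 markers of T cells, B cells, monocytes, hepatocytes and fibroblasts reached at most 0.848 FPKM in any library. In bulk RNA, fewer cells of a state and less RNA per cell cannot be told apart, and the part of the erythroid shift in the results below was not tested.

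All 8 members passed the filter and were tested. After HR-19011 treatment 2 of 8 members were called higher, 5 lower and 1 was not called, so 7 of 8 were called against 84.4% of all tested genes. The transcript of the scaffold, ISCU, was higher by 1.46-fold. Those of the desulfurase NFS1, its partner LYRM4, the electron donor FDX2, the cluster carrier GLRX5 and ISCA1 were lower by 1.40-fold to 1.83-fold. The groups did not overlap for 7 of 8 members, against 85.2% of all tested genes, with 2 members higher (46.9% of all tested genes) and 5 lower (38.3%). The median log2 fold change of the members was -0.46, against 0.07 over the whole table. A test against a 1.5-fold change called GLRX5 alone among the members. The other called members were separated from no change but were not shown to change by more than 1.5-fold.

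**Figure D1:**
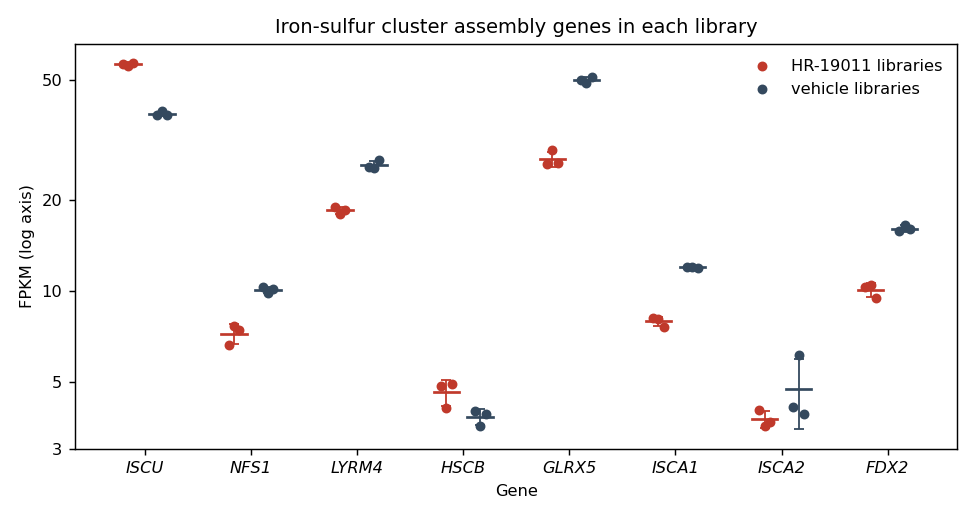
FPKM (log axis) of the 8 iron-sulfur cluster assembly genes, with 1 point per library, bars at the group means and error bars of 1 SD (n = 3 each). ISCU lies higher in the HR-19011 libraries, 5 genes lie lower without overlap, and ISCA2 has 1 vehicle library, at 6.14 FPKM, above all other libraries.

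The desulfurase and its partner fell by like amounts. NFS1, which releases sulfur from cysteine, was at 6.62, 7.64 and 7.41 FPKM in HR-19011 libraries, against 10.3, 9.84 and 10.2 FPKM in vehicle libraries. Every HR-19011 library lay below every vehicle library, by 1.40-fold on the means (log2 fold change -0.44, SE 0.0532, limma adjusted p = 5e-05). LYRM4, which belongs to the LYR motif family and stabilises NFS1, was at 19.0, 18.0 and 18.5 FPKM in HR-19011 libraries, against 25.8, 25.6 and 27.1 FPKM in vehicle libraries. The groups were again apart, by 1.41-fold (log2 fold change -0.48, SE 0.0362, limma adjusted p = 1.81e-06). The ratio of LYRM4 to NFS1 FPKM averaged 2.57 ± 0.261 in HR-19011 libraries and 2.59 ± 0.0796 in vehicle libraries (SD, n = 3 each), a difference smaller than the spread between libraries. NFS1 spans bases 35668052 to 35699352 of chromosome 20 and LYRM4 bases 5031753 to 5260950 of chromosome 6 (GRCh38, minus strand for both).

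The scaffold went the other way from its enzyme. ISCU, on which the new cluster is built, was at 56.8, 55.7 and 57.2 FPKM in HR-19011 libraries, against 38.4, 39.4 and 38.3 FPKM in vehicle libraries. All HR-19011 libraries lay above all vehicle libraries, and the SD was 0.759 FPKM in HR-19011 libraries and 0.615 FPKM in vehicle libraries (n = 3 each). The log2 fold change was 0.53 (SE 0.0276, limma adjusted p = 1.33e-07). The ratio of ISCU to NFS1 FPKM was 8.58, 7.29 and 7.71 in HR-19011 libraries, against 3.73, 4.01 and 3.77 in vehicle libraries. The ratio of ISCU to LYRM4 FPKM was 3.00, 3.09 and 3.09 in HR-19011 libraries, against 1.49, 1.54 and 1.42 in vehicle libraries. Neither ratio overlapped between groups, and neither depends on a library's scaling factor; no test was run, since with 3 libraries a side the smallest exact permutation p is 0.1. ISCU spans bases 108561463 to 108569384 of chromosome 12, and the files list 8 transcripts under it, whose separate levels were not used here.

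FDX2, the mitochondrial ferredoxin of this pathway, was at 10.3, 10.5 and 9.46 FPKM in HR-19011 libraries, against 15.8, 16.5 and 16.03 FPKM in vehicle libraries. It was lower without overlap, by 1.60-fold (log2 fold change -0.63, SE 0.0451, limma adjusted p = 1.26e-06). Its reductase FDXR moved the other way, at 44.5 ± 1.07 FPKM in HR-19011 libraries and 23.0 ± 0.433 FPKM in vehicle libraries (SD, n = 3 each; log2 fold change 0.92, SE 0.0316, limma adjusted p = 9.67e-09). RefSeq also annotates a readthrough transcript of FDX2 with its neighbour ZGLP1 on the same strand (chromosome 19), so reads of that transcript cannot be told apart from those of FDX2.

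HSCB, a J-domain co-chaperone that brings the loaded scaffold to HSPA9, was one of the less abundant members. It was at 4.85, 4.11 and 4.93 FPKM in HR-19011 libraries, against 4.00, 3.56 and 3.93 FPKM in vehicle libraries. The groups did not overlap, but the lowest HR-19011 library lay only just above the highest vehicle library, and the call (log2 fold change 0.22, SE 0.0690, limma adjusted p = 0.0157) was lost after TMM scaling (0.043, adjusted p = 0.56) and turned to -0.060 under quantile normalization (adjusted p = 0.445). It was also lost without HR-19011 replicate 1, HR-19011 replicate 3 or vehicle replicate 2 (adjusted p = 0.056, 0.0581 and 0.0563). The chaperone HSPA9 itself was at 186 ± 3.15 FPKM in HR-19011 libraries and 156 ± 4.17 FPKM in vehicle libraries (SD, n = 3 each; log2 fold change 0.25, SE 0.0279, limma adjusted p = 2.82e-05). Its nucleotide exchange factor GRPEL1 fell, to 7.09 ± 0.319 FPKM in HR-19011 libraries, against 25.5 ± 0.379 FPKM in vehicle libraries (log2 fold change -1.71, SE 0.0397, limma adjusted p = 1.01e-09).

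GLRX5, which receives the cluster from the scaffold, had the largest fall of the 8. It was at 26.3, 29.2 and 26.6 FPKM in HR-19011 libraries, against 50.2, 48.8 and 51.1 FPKM in vehicle libraries. The groups were far apart, by 1.83-fold (log2 fold change -0.85, SE 0.0432, limma adjusted p = 1.2e-07), and the fall passed the test against a 1.5-fold change (adjusted p = 0.000544). In vehicle libraries GLRX5 was the most abundant member, and in HR-19011 libraries ISCU was. The ratio of ISCU to GLRX5 FPKM averaged 2.07 ± 0.143 in HR-19011 libraries and 0.775 ± 0.0296 in vehicle libraries (SD, n = 3 each). GLRX5 spans bases 95535050 to 95544714 of chromosome 14 on the plus strand, behind the 5 CCAAT boxes printed above. The boxes that begin at -234 and -204 relative to the start lie in the annotated span of SNHG10, on the other strand.

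The A-type carriers ISCA1 and ISCA2 work together on the larger clusters. ISCA1 was at 8.14, 8.06 and 7.60 FPKM in HR-19011 libraries, against 12.01, 11.99 and 11.97 FPKM in vehicle libraries. It was lower without overlap, by 1.51-fold (log2 fold change -0.54, SE 0.0388, limma adjusted p = 1.24e-06). RefSeq also annotates a noncoding gene that overlaps ISCA1 on the same strand and is not listed in the libraries. Whether its reads were counted under ISCA1 is not known. ISCA2 was at 4.04, 3.57 and 3.67 FPKM in HR-19011 libraries, against 4.12, 6.14 and 3.91 FPKM in vehicle libraries. The groups overlapped, since HR-19011 replicate 1 lay above vehicle replicate 3, and vehicle replicate 2 stood well above the rest. ISCA2 was not called as deposited (log2 fold change -0.25, 95% interval -0.54 to 0.047, limma adjusted p = 0.103), an interval that holds both no change and the values of NFS1 and LYRM4. Its log2 fold change was -0.076 without vehicle replicate 2 (adjusted p = 0.28), and it was called lower after TMM scaling (-0.42, adjusted p = 0.0165), under quantile normalization (-0.52, adjusted p = 0.0048) and without vehicle replicate 3 (-0.35, adjusted p = 0.0353). The 7 pseudogenes of ISCA1 and ISCA2 in the tables were listed at 0.459 FPKM or less in every library, and the sources used here do not tell how shared reads were divided.

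The composition of the pathway's transcripts was also compared inside each library. The summed FPKM of the 8 members was 136, 137 and 135 in HR-19011 libraries, against 161, 162 and 163 in vehicle libraries. This sum changes with a library's scaling factor, whereas each member's share of it does not. ISCU made up 41.6% ± 0.776 of that sum in HR-19011 libraries and 24.0% ± 0.388 in vehicle libraries (SD, n = 3 each). GLRX5 made up 20.1% ± 1.09 in HR-19011 libraries and 30.9% ± 0.684 in vehicle libraries. The shares of NFS1, LYRM4, ISCA1 and FDX2 were lower in every HR-19011 library than in any vehicle library, with differences of -2.58 for LYRM4, -2.55 for FDX2, -1.59 for ISCA1 and -0.948 for NFS1 percentage points (HR-19011 minus vehicle). The share of HSCB was 3.40% ± 0.350 in HR-19011 libraries and 2.37% ± 0.151 in vehicle libraries, and that of ISCA2 overlapped between the groups, at 2.76% ± 0.185 in HR-19011 libraries and 2.92% ± 0.759 in vehicle libraries. Because shares add to a whole, the rise of ISCU alone lowers the shares of the other members.

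**Figure D2:**
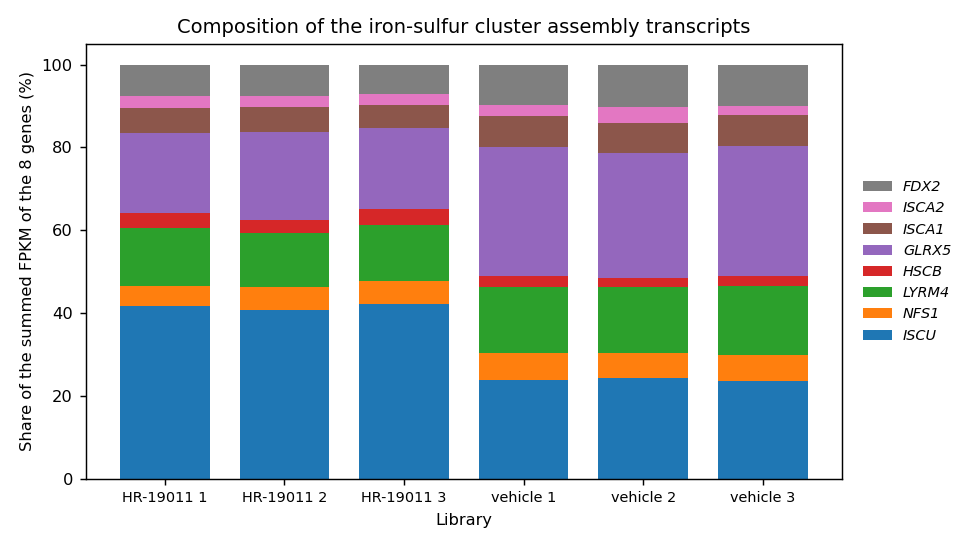
Share of the summed FPKM of the 8 genes (%) taken by each gene, stacked by library, with HR-19011 libraries on the left and vehicle libraries on the right. ISCU takes 41.6% on average in HR-19011 libraries and 24.0% in vehicle libraries, while GLRX5 takes 20.1% in HR-19011 libraries and 30.9% in vehicle libraries.

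The rank of a gene among all tested genes of its library does not depend on a scaling factor either. ISCU stood at the 90.8th percentile on average in HR-19011 libraries and at the 84.6th in vehicle libraries, without overlap. The difference in percentile points, HR-19011 minus vehicle, was -14.98 for FDX2, -14.7 for ISCA1, -12.96 for NFS1, -8.15 for GLRX5 and -7.37 for LYRM4, all without overlap. HSCB ranked between the 25.3rd and 30.2nd percentile in HR-19011 libraries and between the 28.3rd and 30.5th in vehicle libraries, so its rank overlapped although its FPKM did not. ISCA2 ranked between the 21.7th and 25th percentile in HR-19011 libraries and between the 29.9th and 41.0th in vehicle libraries, without overlap although its FPKM overlapped. Within HR-19011 libraries the order by mean FPKM was ISCU, GLRX5, LYRM4, FDX2, ISCA1, NFS1, HSCB and ISCA2, with overlapping values of ISCA1 and NFS1. Within vehicle libraries it was GLRX5, ISCU, LYRM4, FDX2, ISCA1, NFS1, ISCA2 and HSCB, with overlapping values of ISCA2 and HSCB.

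Against the values as deposited, the median log2 fold change over the whole table shifted by -0.19 under TMM scaling, by -0.12 under quantile normalization and by 0.12 under conversion to TPM. ISCU stayed higher under all of them, with log2 fold changes of 0.32 under TMM scaling, 0.68 under quantile normalization and 0.66 under TPM. NFS1, LYRM4, GLRX5, ISCA1 and FDX2 stayed lower and called under each, with log2 fold changes from -1.06 for GLRX5 under TMM scaling to -0.35 for NFS1 under TPM. HSCB and ISCA2 were the members whose calls depended on the scaling. Over all genes, 55.0% of calls were higher as deposited, 42.4% under TMM scaling, 46.3% under quantile normalization and 62.2% under TPM.

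**Figure D3:**
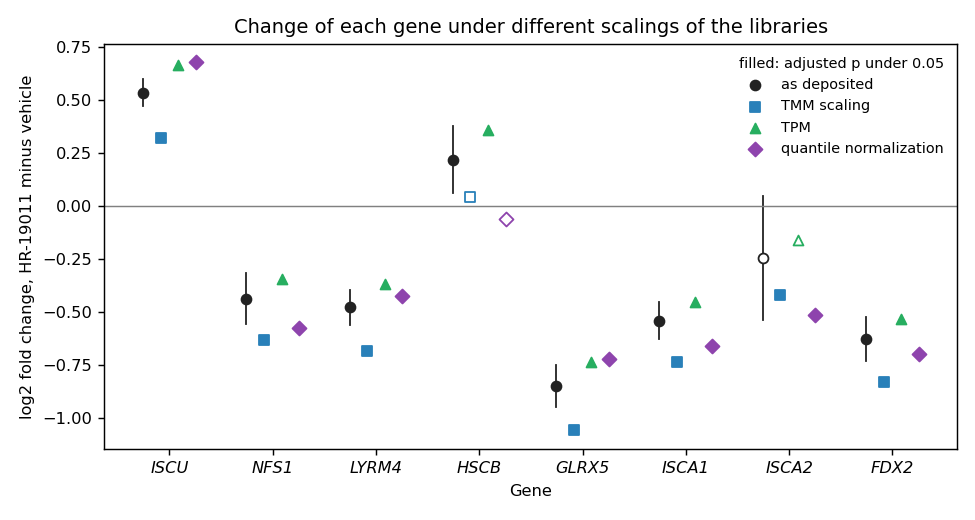
Log2 fold change (HR-19011 minus vehicle) of each member with FPKM as deposited and under TMM scaling, TPM and quantile normalization, with filled symbols for an adjusted p under 0.05 in limma and lines for the 95% interval of the values as deposited. ISCU lies above 0 and called under each of the 4 scalings and 5 members lie below 0 and called, whereas ISCA2, also below 0, and HSCB change between called and not called.

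Genes on the opposite strand were searched whose RefSeq start lay up to 2000 bases from that of a member, measured between the closest listed starts. Of the 8 members, 5 had such a neighbour, the farthest at 253 bases. The share of all genes with such a neighbour was not computed, so this count sets the members apart in nothing. The annotated spans of LYRM4 and FARS2 overlap by 11017 bases, so their distance holds for the closest starts and not for all of FARS2. The spans of the other 4 pairs lie apart. These neighbours were picked by position after the values of the members had been seen. NFS1 starts 53 bases from ROMO1, a regulator of mitochondrial reactive oxygen species. ROMO1 was at 60.5, 56.6 and 58.6 FPKM in HR-19011 libraries, against 77.1, 82.3 and 81.0 FPKM in vehicle libraries. Its log2 fold change of -0.45 (SE 0.0359, limma adjusted p = 2.73e-06) was close to the -0.44 of NFS1. LYRM4 starts 57 bases from FARS2, the mitochondrial phenylalanine tRNA synthetase. FARS2 was at 6.68, 7.65 and 6.82 FPKM in HR-19011 libraries, against 9.52, 10.3 and 10.2 FPKM in vehicle libraries. Its log2 fold change was -0.45 (SE 0.0555, limma adjusted p = 5.3e-05), beside -0.48 for LYRM4. GLRX5 starts 178 bases from SNHG10, a noncoding host gene of a small RNA, which was at 1.89, 3.04 and 2.64 FPKM in HR-19011 libraries, against 4.63, 5.25 and 4.33 FPKM in vehicle libraries (log2 fold change -0.71, SE 0.116, limma adjusted p = 0.000359). In these 3 pairs both genes were called lower, as were 38.0% of all tested genes. How often neighbouring genes share a direction in the whole table was not computed.

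The other 2 pairs differed. HSCB starts 212 bases from CHEK2, a checkpoint kinase of the DNA damage response. CHEK2 was at 9.33, 10.3 and 11.0 FPKM in HR-19011 libraries, against 15.2, 16.5 and 17.1 FPKM in vehicle libraries (log2 fold change -0.62, SE 0.0630, limma adjusted p = 1.39e-05), while HSCB was not lower. ISCA2 starts 253 bases from NPC2, which carries cholesterol out of lysosomes. NPC2 was at 23.6, 20.5 and 21.6 FPKM in HR-19011 libraries, against 7.23, 7.09 and 8.46 FPKM in vehicle libraries (log2 fold change 1.42, SE 0.0705, limma adjusted p = 1.03e-07), while ISCA2 was not called. The difference between the genes of a pair was not tested. The antisense gene LYRM4-AS1, which overlaps LYRM4, was at 2.36 ± 0.200 FPKM in HR-19011 libraries and 0.947 ± 0.0543 FPKM in vehicle libraries (SD, n = 3 each; limma adjusted p = 2.89e-06). The library kit keeps strand, but no source used here tells whether the counting did, so the values of LYRM4, LYRM4-AS1 and FARS2 are uncertain where these genes overlap.

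**Figure D4:**
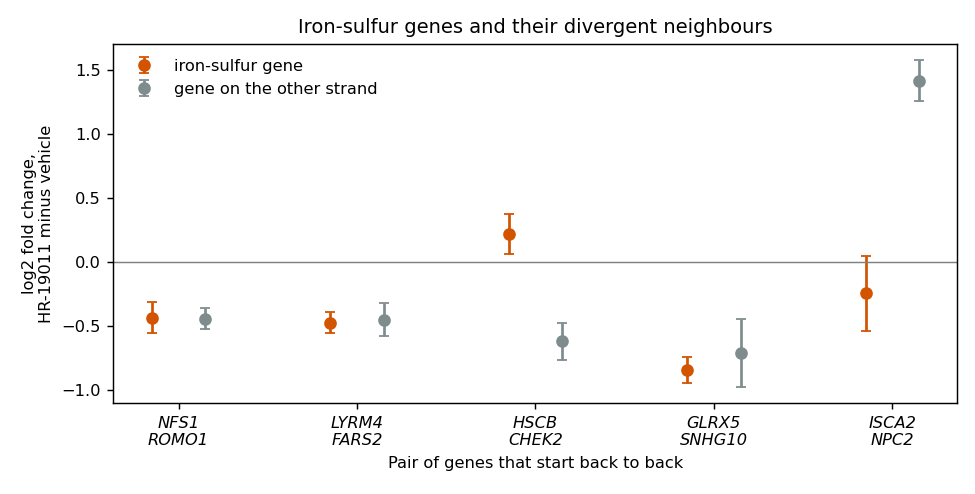
Log2 fold change (HR-19011 minus vehicle) with its 95% interval for 5 iron-sulfur genes, left, and the gene that starts next to each on the opposite strand, right. Both genes of the pairs with ROMO1, FARS2 and SNHG10 lie below 0, while CHEK2 lies below and NPC2 far above its partner.

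Wider lists of the pathway, described by counts, were read against the 46.4% of all tested genes called higher and the 38.0% called lower. Of 8 mitochondrial partners, 3 were called higher and 5 lower, with a median log2 fold change of -0.23. NDUFAB1, the acyl carrier protein that LYR proteins such as LYRM4 bind, was at 81.2 ± 3.06 FPKM in HR-19011 libraries and 161 ± 4.99 FPKM in vehicle libraries (SD, n = 3 each; limma adjusted p = 1.41e-08). Together with NFS1 and LYRM4 its product forms the desulfurase complex, and all 3 transcripts were called lower.

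Among 5 late targeting factors, which hand clusters to particular enzymes, BOLA1 fell below the filter and 4 were tested, with 2 higher, 1 lower, 1 not called and a median log2 fold change of 0.042. NFU1 was higher, at 29.4 ± 0.809 FPKM in HR-19011 libraries and 18.4 ± 0.874 FPKM in vehicle libraries (SD, n = 3 each; limma adjusted p = 5.46e-07), whereas BOLA3, with which it works on lipoate synthase, was lower, at 38.0 ± 1.91 FPKM in HR-19011 libraries and 97.2 ± 3.64 FPKM in vehicle libraries (limma adjusted p = 6.17e-09). IBA57, the partner of the ISCA proteins, was called higher as deposited (log2 fold change 0.14, limma adjusted p = 0.0252). It stood at -0.027 under TMM scaling (adjusted p = 0.601) and was called lower under quantile normalization (-0.19, adjusted p = 0.00512). Leaving out 1 library at a time gave adjusted p from 0.0256 to 0.0757 for IBA57. NUBPL, the complex I assembly factor, was not called (log2 fold change -0.053, limma adjusted p = 0.391), although it was lower under TMM scaling (-0.20, adjusted p = 0.007) and quantile normalization (-0.40, adjusted p = 0.000152).

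The cytosolic assembly machinery, which builds clusters for cytosolic and nuclear proteins, had 3 of 11 genes higher (0 under TMM scaling) and 7 lower, with a median log2 fold change of -0.24. CIAO2A and CIAPIN1, a targeting factor and an electron carrier of that machinery, were lower by 1.68-fold and 1.67-fold (limma adjusted p = 3.24e-08 and 4.63e-08). BOLA2, which works with the glutaredoxin GLRX3 and has a near-identical copy, was lower by 1.87-fold, a value that is uncertain where reads could be split. CIAO2B was called higher as deposited (log2 fold change 0.17, limma adjusted p = 0.000567) and stood at -0.046 under TMM scaling.

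Proteins that carry the finished clusters were counted by compartment. Of 15 mitochondrial cluster proteins, 13 were lower and 0 higher (1 higher under TPM), and their log2 fold changes had a median of -0.62. SDHB of complex II and NDUFV1 and NDUFV2 of complex I were lower by 1.79-fold, 1.66-fold and 1.71-fold (limma adjusted p = 3.22e-09, 7.11e-08 and 1.16e-08). CISD3, a small cluster protein of the mitochondrial matrix, was lower by 2.68-fold, at 6.07 ± 0.292 FPKM in HR-19011 libraries and 16.2 ± 0.420 FPKM in vehicle libraries (SD, n = 3 each; limma adjusted p = 9.13e-09). Of 21 tested cytosolic and nuclear cluster proteins, 3 were higher (1 under TMM scaling, 7 under TPM) and 12 lower, with a median of -0.21. NTHL1, a DNA repair glycosylase, was lower by 3.55-fold, the helicase RTEL1 by 2.24-fold and the ribosome recycling factor ABCE1 by 2.13-fold, whereas the repair glycosylase MUTYH was higher by 1.92-fold (limma adjusted p = 4.09e-08, 3.89e-08, 2.78e-08 and 1.12e-07). These sets were not compared with each other by a test.

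**Figure D5:**
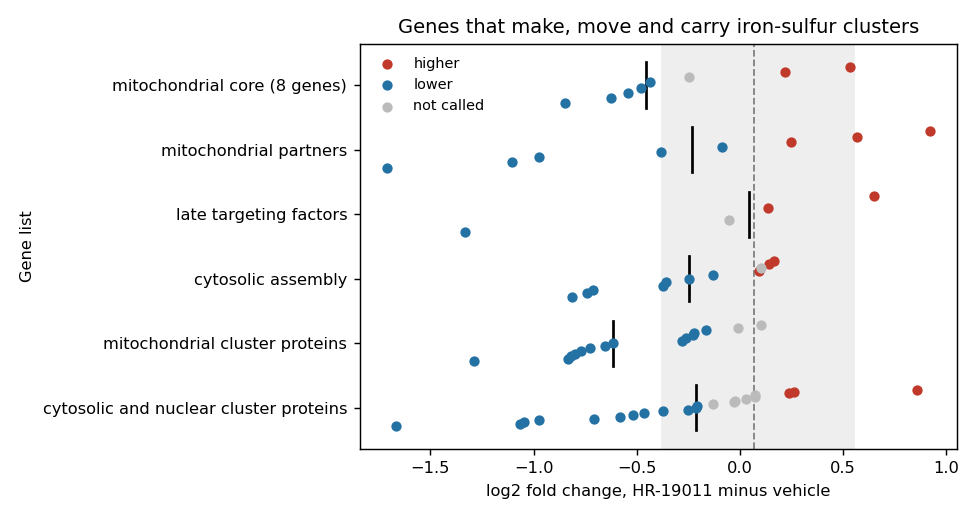
Log2 fold change (HR-19011 minus vehicle) of each tested gene of the 6 lists, coloured by its limma call, with a black bar at each list's median. The dashed line marks the median of all tested genes, 0.07, and the grey band their middle range from -0.38 to 0.55.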

How the data were processed

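RNA of 3 HR-19011 and 3 vehicle libraries was measured, grouped by the sample titles. Per the labels' protocols, a stranded mRNA kit was used. Tools named in the submitters' processing notes include Trimmomatic 0.38, HISAT2 2.1.0, SAMtools 1.9 and StringTie 2.1.3b and the build GRCh38, with no roles given. The authors deposited gene-level FPKM, as the column headers name them. Depth is unknown: at the best of many steps 28.1% to 32.6% of low values in genes with 1 transcript lay within 0.1 of a whole multiple, where 1 fixed step gives 20% by chance, so reads were not recovered and count models were left out. Libraries were not duplicates of each other (at most 0.0244% of values above 0 identical within a group).

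The 11856 genes averaging 1 FPKM or more across libraries entered limma 3.58.1 (R 4.3.3) as log2(FPKM + 1). The model held group alone and a variance trend, tests were two-sided, and p-values were adjusted by Benjamini-Hochberg over all of these genes. Alternatives were other pseudocounts, filters, scalings and thresholds, no trend, a replicate block, a test against a 1.5-fold change and leaving out each library. TMM scaling here took a trimmed mean of log2 FPKM ratios to the libraries' geometric mean, without weights or counts. It used genes detected in every library, also those under the filter, and quantile normalization used all listed genes. Fold changes on that scale understate the change of low genes; folds without log2 are ratios of mean FPKM. The script was tested on simulated data. Members and lists were chosen with earlier results of these data known. Genes named from the wider lists are the 4 with the smallest p, with 1 per direction where both were called; HSPA9 was added after its values were seen, and 1 gene that the rule names is not reported here. Positions and promoter windows are from RefSeq (GRCh38.p14), matched by gene identifier for 8 of 8 members. Protein features fixed for description were not analysed here.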

Additional observations from a re-analysis of the deposited data

How the results depend on the processing

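Over the 17 alternatives, ISCU, NFS1, LYRM4, GLRX5, ISCA1 and FDX2 kept their direction, and lost their call only in the test against a 1.5-fold change (GLRX5 kept it). That test left 0 members higher and 1 lower, with adjusted p = 1 for ISCU (0.53), NFS1 (-0.44), LYRM4 (-0.48), ISCA1 (-0.54) and HSCB (0.22) and 0.511 for FDX2 (-0.63). HSCB, at 0.22 with an adjusted p = 0.0157, was not called at a threshold of 0.01, with no filter (0.22, adjusted p = 0.0534), after TMM scaling (0.043) or under quantile normalization, where it turned to -0.060. Leaving out 1 library at a time gave 0.18 to 0.29 for HSCB and -0.35 to -0.076 for ISCA2, and 1 to 2 members higher. ISCA2 was called lower after TMM scaling (-0.42) and quantile normalization (-0.52). Members called higher numbered 1 with no filter, with a mean of at least 5 FPKM (which drops HSCB and ISCA2), after TMM scaling, under quantile normalization and at 0.01.

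Over all genes, 8828 were called higher with no filter and 3347 at a mean of 5 FPKM or more, and 2201 were called higher and 1515 lower against 1.5-fold. Under TMM scaling the late targeting factors had 1 higher and 2 lower, the cytosolic machinery 0 higher, and cytosolic and nuclear cluster proteins 1 higher. Under quantile normalization the late factors had 1 higher and 3 lower, and cytosolic and nuclear cluster proteins 1 higher. Under TPM mitochondrial cluster proteins had 1 higher and cytosolic and nuclear ones 7. At a mean of 5 FPKM or more the late factors had 1 higher, and at a threshold of 0.01 they and the cytosolic machinery had 1 higher each; leaving out 1 library gave 1 to 2 and 1 to 3. Against 1.5-fold, mitochondrial partners had 1 higher and 3 lower, late factors 0 higher, the cytosolic machinery 0 higher and 3 lower, mitochondrial cluster proteins 6 lower, and cytosolic and nuclear ones 1 higher and 5 lower. IBA57 turned to -0.027 under TMM scaling and to -0.19 under quantile normalization, where it was called lower. CIAO2B turned to -0.046 under TMM scaling and NUBPL to 0.041 under TPM. The causes of these shifts were not tested.

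Whether same-numbered libraries share a batch is not known from the labels. The correlations of their deviations from the group means were -0.0343, -0.00448 and -0.108, against -0.0338 to 0.0697 for libraries of unlike number. So few values cannot settle whether a batch is shared. With the replicate number as a block, 5435 genes were higher and 4445 lower, members stayed at 2 higher and 5 lower, and late factors had 1 higher. With no counts, no interval for counting error can be given, and low genes such as HSCB and ISCA2 are the least certain.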
